A study of Mus musculus with 24 samples.

Results

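The cyclins and cyclin-dependent kinases (CDKs) described here are Ccnd1, Ccnd2, Ccnd3, Cdk4, Cdk6, Ccne1, Ccne2, Cdk2, Ccna2 and Ccnb1, that is 10 of the 56748 genes in the deposited table and 10 of its 21970 protein-coding genes. They were taken from the table by gene symbol and biotype. RNA was sequenced from mouse liver endothelial cells purified with Cd31 magnetic beads (Cd31+, the general endothelial population) or with Cd146 magnetic beads (Cd146+, liver sinusoidal endothelial cells), cultured, and harvested 1 week after lentiviral transduction. Cells of either population received P16 shRNA, a hairpin against P16Ink4a, or nc shRNA, a non-coding hairpin in the same pLKO.1 vector, or P16, a P16Ink4a-GFP fusion, or the empty vector with the GFP backbone only. Each of the 8 groups holds 3 libraries, 24 in all. The mice were C57BL/6, 3 months old and, by the methods, female. All groups, controls included, carry a lentivirus, the hairpin and fusion vectors differ in backbone, and whether a library is 1 animal or a pool is not given in the sources used here. The measurements show how the cyclin and CDK transcripts stood when P16 was silenced or overexpressed.

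D-type cyclins bind the kinases Cdk4 and Cdk6 in early G1 and start the phosphorylation of the retinoblastoma protein Rb, which frees E2F factors. E2F then drives E-type cyclins, which partner Cdk2 at the entry into S phase, and Ccna2, which acts in S phase and G2. Ccnb1 joins Cdk1 for entry into mitosis. P16Ink4a, 1 product of the Cdkn2a gene, binds Cdk4 and Cdk6 and keeps D-type cyclins from activating them, so these genes hold both the direct targets of P16 and the cyclins that act after them.

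The gene counts of a library summed to 15409767 to 26470392, and every member had at least 63 reads in every library, so all 10 passed the filter on low counts in all comparisons. Cdkn2a, the gene targeted by both constructs, was counted in CPM (reads scaled to library size, with the trimmed mean of M values) at 56.5 ± 19.5 with nc shRNA and 6.63 ± 2.24 with P16 shRNA in Cd31+ cells, and at 138 ± 50.5 and 14.8 ± 9.26 in Cd146+ cells (mean ± SD, n = 3). With P16 it reached 231 ± 96.1 against 57.05 ± 24.6 with empty vector in Cd31+ cells and 497 ± 307 against 92.3 ± 19.0 in Cd146+ cells. The groups did not overlap in any of the 4 comparisons and differed in the direction that the labels give, although gene counts cannot separate P16Ink4a from the p19Arf product of the same gene. Endothelial markers were present (14 of 16 at a mean of at least 1 CPM, summed level 365 to 2745 CPM), and of the sinusoidal markers among them Stab1 had a median of 27.0 CPM (3.68 to 430 CPM), Lyve1 of 1.23 CPM and Fcgr2b of 0.809 CPM, whereas Stab2 and Clec4g stayed below 1 CPM in every library. Mesenchymal markers summed to 6562 to 50984 CPM, led by Col1a1, and hepatocyte and lymphoid markers stayed below 1 CPM in sum. Fewer cells of a type and less RNA per cell cannot be told apart in such bulk samples. Of the 24 libraries, 16 carried the Y-linked transcript Ddx3y at 52.4 to 168 CPM with next to no Xist, and the other 8 carried Xist at 322 to 765 CPM and no Ddx3y, against the sex given in the methods. This pattern went with the replicate number in the labels (numbers 1 to 3 against 4 to 6). All 6 libraries of the silencing comparison in Cd31+ cells carried Ddx3y.

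Libraries with the same number within a population deviated together, so each construct was also fitted with the number as a block over the 12 libraries of its population, and that value is given where it changes a call. A library alone in its number adds nothing to such a fit, which in Cd146+ cells holds for P16 shRNA with number 6 and empty vector with numbers 2 and 4. Nothing in the labels states what a number stands for, nor that libraries come from separate animals, so p-values measure the spread between these samples only. Differences are log2 fold changes from edgeR (quasi-likelihood test). The test gives no standard error, so the standard errors (SE) were derived as the absolute log2 fold change over the square root of the F statistic. The p-values were adjusted by the method of Benjamini and Hochberg across every gene that entered the fit, and a gene was called at an adjusted p under 0.05.

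Per length, in the deposited FPKM, fragments scaled to transcript length and library size, the most abundant member was Ccnd2, with a median of 128 FPKM over the 24 libraries (63.8 to 180.1). Cdk4 (81.0 FPKM, 62.9 to 100.001) and Ccnd1 (79.6 FPKM, 20.4 to 129) followed, and their order changed from library to library, Cdk4 being the higher in 12 of 24. The other members were far lower. Ccnd3 had a median of 11.98 FPKM, Ccna2 of 10.7, Ccnb1 of 10.6, Cdk6 of 7.37, Cdk2 of 5.81, Ccne1 of 5.22 and Ccne2 of 3.53. Ccnd1 was above Ccnd3 in 24 of 24 libraries, whereas Ccna2 was above Ccnb1 in 11 of 24, so these last neighbours cannot be ordered. The transcripts thus formed a high group of Ccnd2, Cdk4 and Ccnd1 and a low group of all others, the D-type cyclin Ccnd3 among them. Within a gene, Cdk4 was the steadiest, with a highest library 1.61 times the lowest, and Ccnb1 (7.92 times), Ccna2 (7.19 times) and Ccnd1 (6.34 times) were the most variable. For Ccnd1 the group means fell into an upper set of 6 groups and a lower set of the P16 shRNA groups, and no library of the former overlapped with the latter. For the other members, every group overlapped with its neighbour in the order of group means.

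**Figure D1:**
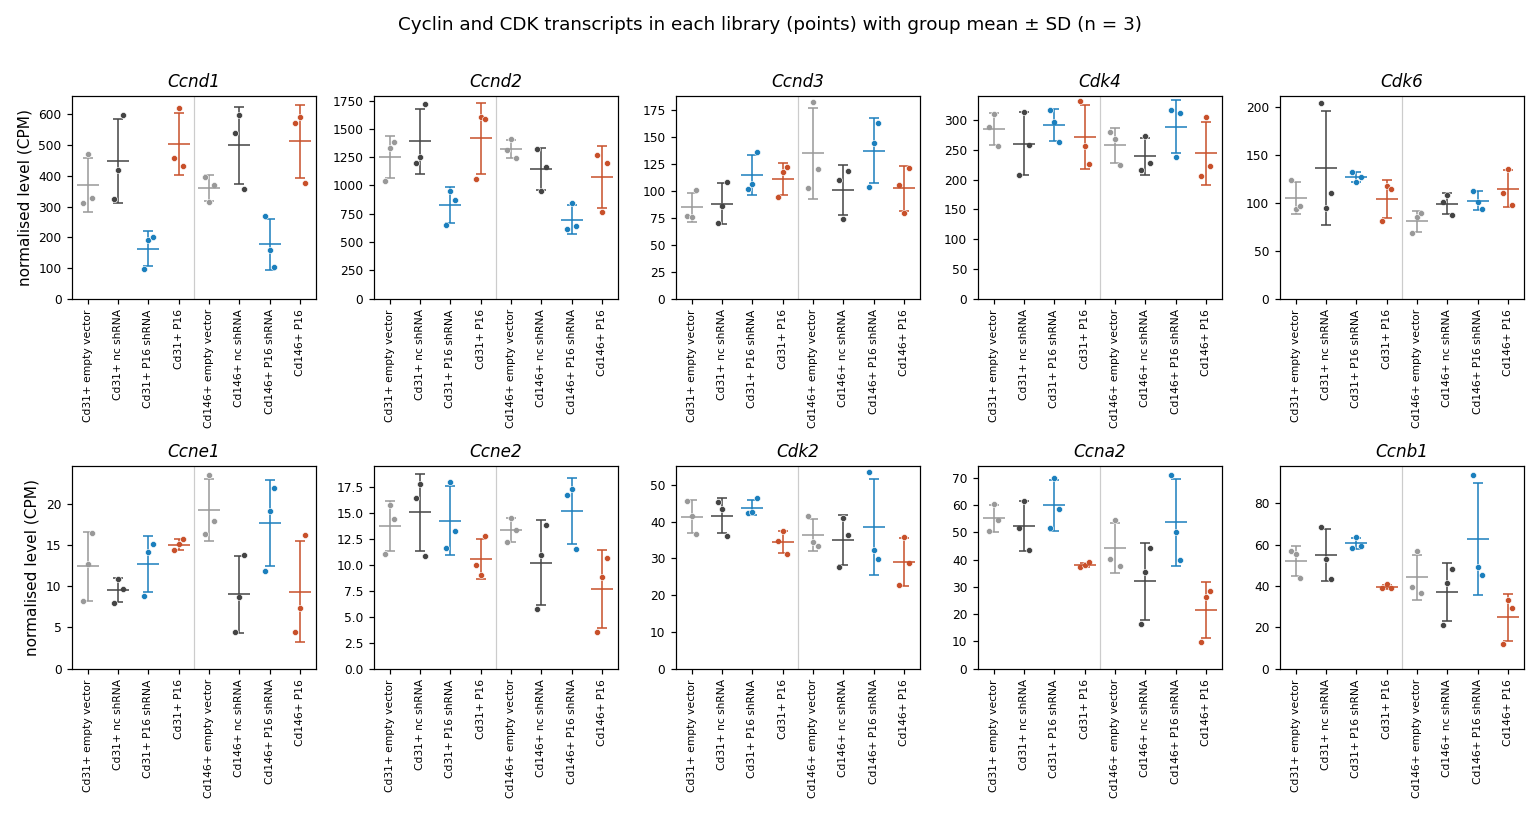
Normalised level (CPM, linear axes from 0) of each member in every library, by population and construct, with group mean and SD (n = 3). The 6 P16 shRNA libraries hold the lowest values of Ccnd1 (97.8 to 269 CPM, all other libraries at 312 CPM or more), while the group means of Ccna2 and Ccnb1 are lowest with P16 in Cd146+ cells (21.6 and 24.8 CPM).

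With P16 silenced, the means of Ccnd1 and Ccnd2 were lower and that of Ccnd3 slightly higher in both populations. With edgeR on the 6 libraries of a comparison none of these passed the adjusted test. With the replicate block over 12 libraries all of them did, whereas the block on the 2 groups alone called them in Cd31+ cells and called none in Cd146+ cells. The 2-group block rests on 3 pairs in Cd31+ cells but on 2 in Cd146+ cells. There nc shRNA with number 1 and P16 shRNA with number 6 have no partner. Its calls therefore cannot be compared between the populations. Ccnd1 encodes cyclin D1, the D-type cyclin most closely tied to growth factor signals, and lies on chromosome 7 (144929931 to 144939925, minus strand, GRCm38). In Cd31+ cells it was counted at 326, 419 and 597 CPM with nc shRNA (numbers 1, 2 and 3) and at 97.8, 190.4 and 199 CPM with P16 shRNA. In Cd146+ cells the nc shRNA libraries had 540.4, 599.8 and 357 CPM (numbers 1, 3 and 5) and the P16 shRNA libraries 269, 157 and 104 CPM (numbers 3, 5 and 6). The groups did not overlap in either population, and every silenced library was below every control. The log2 fold change was -1.45 (SE 0.34, edgeR adjusted p = 0.100) in Cd31+ cells, 0.367 times the control, and -1.49 (SE 0.39, adjusted p = 0.382) in Cd146+ cells, 0.355 times the control. Neither passed the adjusted threshold. With the replicate block over 12 libraries both passed it, at -1.48 (SE 0.13, edgeR adjusted p = 4.61e-05) in Cd31+ cells and -1.16 (SE 0.09, edgeR adjusted p = 0.00144) in Cd146+ cells. With the block on the 2 groups of Cd146+ cells Ccnd1 was at -1.17 (SE 0.13, edgeR adjusted p = 0.0994) and not called. Over all fits, leaving out single libraries included, the adjusted p ran from 4.61e-05 to 0.232 in Cd31+ and from 0.00144 to 0.889 in Cd146+ cells, and the log2 fold change stayed between -1.64 and -1.18 and between -1.94 and -1.16.

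Ccnd2, cyclin D2, is on chromosome 6 (127125162 to 127152193, minus strand). Its levels in Cd31+ cells were 1198, 1251 and 1720.1 CPM with nc shRNA and 647, 955 and 869 CPM with P16 shRNA. In Cd146+ cells they were 1324, 948 and 1165 CPM with nc shRNA and 613, 842 and 638 CPM with P16 shRNA. Again the groups were separate in both populations, by a narrower gap than for Ccnd1. The log2 fold change was -0.74 (SE 0.20, edgeR adjusted p = 0.120) and -0.71 (SE 0.21, edgeR adjusted p = 0.384). It was called with the block, at -0.74 (SE 0.15, edgeR adjusted p = 0.00520) and -0.54 (SE 0.11, edgeR adjusted p = 0.0209), but not with the block on the 2 groups of Cd146+ cells (edgeR adjusted p = 0.202). Over all fits the adjusted p for Ccnd2 ran from 2.98e-05 to 0.294 and from 0.0209 to 0.889.

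Ccnd3, cyclin D3 (chromosome 17, 47505051 to 47599691, plus strand), went the other way. In Cd31+ cells it had 70.2, 85.9 and 108 CPM with nc shRNA and 101, 107 and 136 CPM with P16 shRNA. The Cd146+ libraries had 110.03, 74.3 and 118 CPM with nc shRNA and 104, 145 and 163 CPM with P16 shRNA. The groups overlapped in both populations, since the libraries of a group differed by number as much as the groups did. The log2 fold change was 0.39 (SE 0.19, edgeR adjusted p = 0.298) and 0.45 (SE 0.26, edgeR adjusted p = 0.504). With the block it was called as higher, at 0.39 (SE 0.09, edgeR adjusted p = 0.0132) in Cd31+ and 0.36 (SE 0.09, edgeR adjusted p = 0.0464) in Cd146+ cells, the latter close to the threshold and not called with the block on the 2 groups (edgeR adjusted p = 0.249). Over all fits the adjusted p for Ccnd3 ran from 0.0132 to 0.601 and from 0.0464 to 0.889.

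Within pairs of libraries that share a number, Ccnd1 was lower with P16 shRNA in 3 of 3 pairs of Cd31+ cells (log2 ratios of -1.74, -1.14 and -1.58) and in 2 of 2 pairs of Cd146+ cells (-1.16 and -1.19). Ccnd2 was lower in the same 5 pairs, by log2 ratios between -0.98 and -0.39, and Ccnd3 was higher in all 5, between 0.29 and 0.53. Both libraries of each pair carried the same sex-linked transcripts. In the 3 pairs of Cd31+ cells the summed mesenchymal markers were higher with P16 shRNA (50984 against 37349 CPM, 23885 against 20499 and 34471 against 29704), and the endothelial markers were lower (365 against 648 CPM, 603 against 700.5 and 760.3 against 1278). In the pairs of Cd146+ cells the mesenchymal sum was also higher (31542 against 27633 CPM and 31236 against 26914), and the endothelial sum lower (461 against 532 CPM and 1853 against 2099). The part of these markers in the D-type cyclin differences was not tested.

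**Figure D2:**
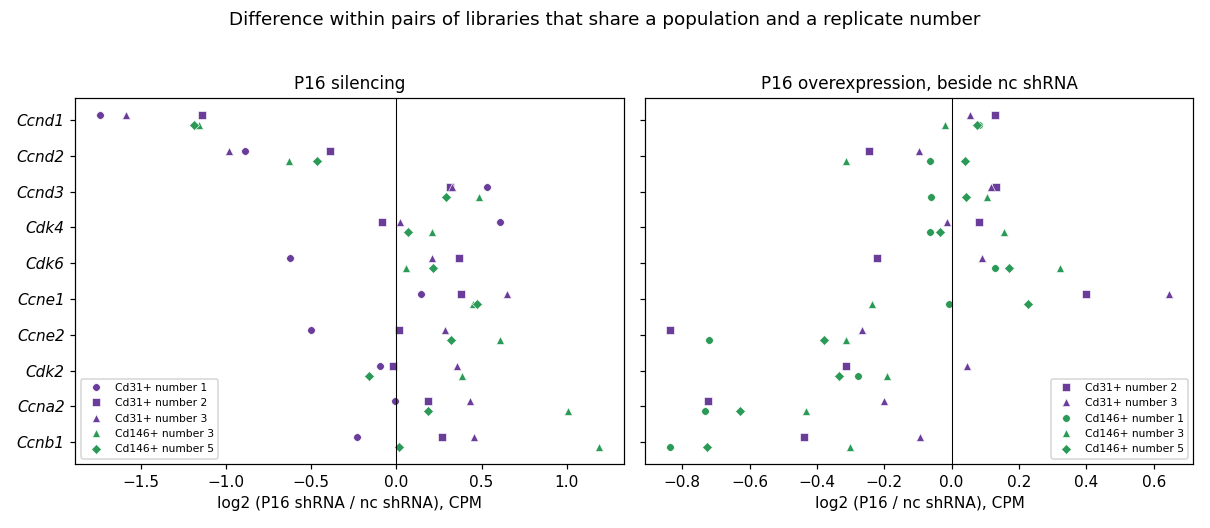
Log2 ratio of CPM within pairs of libraries that share population and replicate number, for P16 shRNA over nc shRNA (left) and for P16 over nc shRNA (right). Each point is 1 pair. On the left, Ccnd1 and Ccnd2 lie below 0 and Ccnd3 and Ccne1 above 0 in all 5 pairs; on the right, Ccne2, Ccna2 and Ccnb1 lie below 0 in all 5 pairs.

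The mix of D-type cyclins was computed within each library, as the share of each in their summed FPKM, which does not depend on depth or scaling. In Cd31+ cells the sum was 249 ± 60.2 FPKM with nc shRNA and 133 ± 29.7 FPKM with P16 shRNA, and in Cd146+ cells 237 ± 27.8 and 127 ± 14.2 FPKM (mean ± SD, n = 3). The share of Ccnd1 was 33.8 to 39.4% with nc shRNA and 20.5 to 28.2% with P16 shRNA in Cd31+ cells, and 35.6 to 53.8% and 20.3 to 42.6% in Cd146+ cells, where the groups overlapped. The share of Ccnd3 was 3.83 to 4.22% against 7.90 to 11.4% in Cd31+ cells and 3.58 to 6.32% against 8.84 to 17.1% in Cd146+ cells, without overlap in either. Libraries with P16 shRNA therefore held a smaller total of D-type cyclin transcripts with a larger part of Ccnd3. Ccnd3 itself had 9.87 ± 2.11 and 12.9 ± 2.09 FPKM with nc shRNA and P16 shRNA in Cd31+ cells. In Cd146+ cells it had 11.4 ± 2.77 and 15.6 ± 3.72 FPKM. Libraries overlapped in both populations, so the larger share follows in part from the smaller sum and is not a separate result. An empty vector library of Cd146+ cells (number 4) had a share of 8.75%. The share of Ccnd2 overlapped between nc shRNA and P16 shRNA in both populations (56.8 to 62.2% against 61.5 to 68.0%, and 42.6 to 58.1% against 48.6 to 64.3%). With P16 the sum was 267 ± 47.6 FPKM in Cd31+ cells, against 218 ± 32.6 with empty vector, and 234 ± 28.6 against 230.2 ± 7.75 FPKM in Cd146+ cells, with overlapping libraries in both populations.

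**Figure D3:**
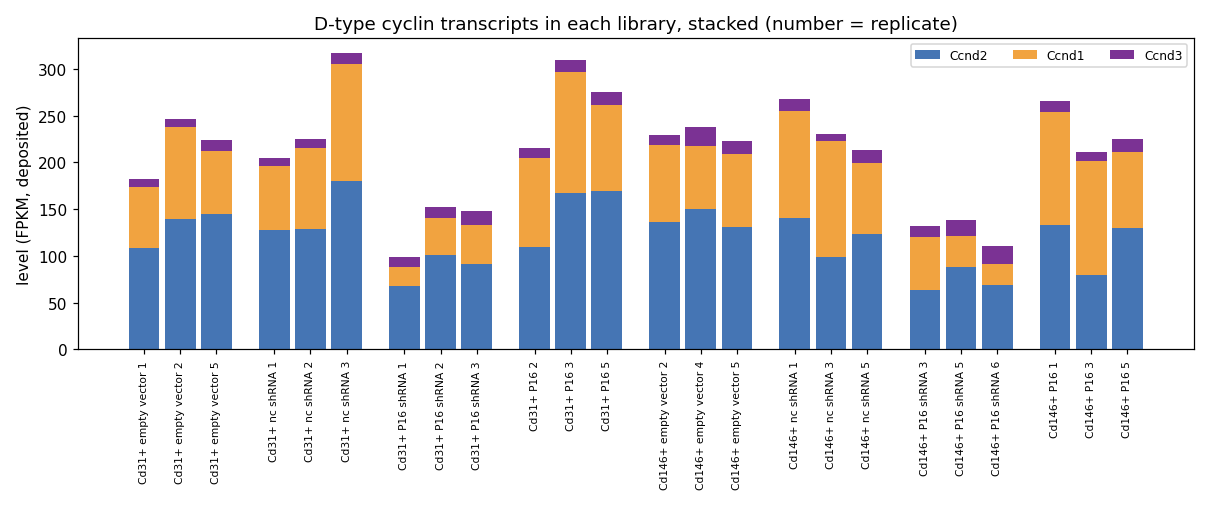
Deposited level (FPKM) of Ccnd2, Ccnd1 and Ccnd3 stacked in each of the 24 libraries, named by group and replicate number. The 6 P16 shRNA libraries have the lowest totals, between 99.1 and 153 FPKM, where all others are between 182 and 317 FPKM.

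The catalytic partners of the D-type cyclins were not called. Cdk4 (chromosome 10, 127063534 to 127067920, plus strand) had 208 to 314 CPM with nc shRNA and 263 to 316 CPM with P16 shRNA in Cd31+ cells, and 215 to 274 against 239 to 317 CPM in Cd146+ cells. The log2 fold change of 0.18 (SE 0.16) and 0.29 (SE 0.19) was near the size of its error. Cdk6 (chromosome 5, 3341485 to 3531008, plus strand) had 204, 94.1 and 110.2 CPM with nc shRNA and 132, 122 and 127 CPM with P16 shRNA in Cd31+ cells, so the single nc shRNA library with number 1 held both the top of the range and the sign of the difference. The fitted difference was -0.09 (SE 0.29) and turned to 0.32 without that library. In Cd146+ cells it was 0.06 (SE 0.17). Cdk4 supplied most of the summed FPKM of both kinases in every library, since the share of Cdk6 lay between 5.33 and 18.6%, the highest value again being nc shRNA with number 1 of Cd31+ cells.

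The members that act from the G1/S transition on showed no call with silencing. In Cd31+ cells the log2 fold change was 0.43 (SE 0.24) for Ccne1 and -0.06 (SE 0.24) for Ccne2, the E-type cyclins, 0.09 (SE 0.12) for their kinase Cdk2, 0.21 (SE 0.17) for Ccna2 and 0.15 (SE 0.17) for Ccnb1. In Cd146+ cells the values were larger with larger errors, at 0.98 (SE 0.44), 0.58 (SE 0.35), 0.15 (SE 0.28), 0.76 (SE 0.39) and 0.78 (SE 0.40) in the same order. Their edgeR adjusted p lay at 0.363 or above. Ccne1 had 4.47, 8.67 and 13.8 CPM with nc shRNA and 11.8, 19.1 and 21.9 CPM with P16 shRNA in Cd146+ cells, where the ranges overlapped. Ccna2 had 16.4, 35.4 and 44.2 CPM against 71.2, 50.2 and 39.9 CPM, and the low library with number 1 has no P16 shRNA partner. Without it the difference in Ccna2 was 0.43 in place of 0.76, and that in Ccne1 0.65 in place of 0.98. In the 5 numbered pairs Ccne1 was higher with P16 shRNA in all 5 (log2 ratios 0.14 to 0.65), and Ccna2 in 4 of 5 (-0.0078 to 1.01).

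In counts, silencing called 0 of 10 members in Cd31+ cells with edgeR at the adjusted threshold, where 1.3% of the 14358 genes tested were called, and 2 of 10 at an unadjusted p under 0.05, where 19.8% of genes passed. Ccnd1 and Ccnd2 were also the 2 of 10 members whose groups did not overlap, against 27.2% of all genes. In Cd146+ cells 0 of 10 were called (0% of 15124 genes), 2 of 10 had an unadjusted p under 0.05 (11.6% of genes), and 2 of 10 were separate between groups (20.7% of genes). DESeq2's Wald test called 2 of 10 in Cd31+ cells, where it called 1096 of 14358 genes, and 1 of 10 in Cd146+ cells, where it called 333 of 15124. With the block 3 of 10 members were called in each population, namely Ccnd1, Ccnd2 and Ccnd3, where 16.8% of 15426 genes in Cd31+ and 8.33% of 15915 genes in Cd146+ cells were. With 10 members, counts of 2 or 3 are too few to be set apart from these backgrounds. The median log2 fold change of the members was 0.12 in Cd31+ and 0.37 in Cd146+ cells, beside 0.0034 and 0.025 over all genes tested.

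With P16 overexpressed, Ccna2 and Ccnb1 had lower values in every library than with empty vector in both populations, but no member was called. Ccna2 encodes cyclin A2 (chromosome 3, 36564865 to 36572150, minus strand) and had 50.6, 60.6 and 54.4 CPM with empty vector (numbers 1, 2 and 5) and 37.3, 37.9 and 39.0 CPM with P16 (numbers 2, 3 and 5) in Cd31+ cells. The Cd146+ libraries had 40.2, 54.7 and 37.8 CPM with empty vector (numbers 2, 4 and 5) and 9.90, 26.3 and 28.6 CPM with P16 (numbers 1, 3 and 5). The groups were separate in both populations. The log2 fold change was -0.53 (SE 0.12, edgeR adjusted p = 0.947) in Cd31+ cells and -1.03 (SE 0.41, edgeR adjusted p = 0.986) in Cd146+ cells. With the block it was -0.53 (SE 0.12, edgeR adjusted p = 0.267) and -0.48 (SE 0.24). In Cd146+ cells P16 and empty vector share only number 5, the P16 libraries with numbers 1 and 3 enter that fit through nc shRNA, and the empty vector libraries with numbers 2 and 4 have no partner and add nothing to it. Of the Cd146+ libraries 2 of 3 with P16 and 1 of 3 with empty vector carried Ddx3y, and with this pattern as a term in the fit the Ccna2 difference was -0.91 (SE 0.41). Summed mesenchymal markers were 12735 CPM in the Cd146+ P16 library with number 1, which had the lowest Ccna2. They were 6562 CPM in the empty vector library with number 4, which had the highest Ccna2. The other Cd146+ libraries of this comparison had 23490 to 27844 CPM. The part of these markers in the Ccna2 and Ccnb1 differences was not tested.

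Ccnb1, cyclin B1 (chromosome 13, 100778650 to 100786570, minus strand), followed the same order. It had 56.7, 55.7 and 43.6 CPM with empty vector and 39.0, 40.7 and 39.1 CPM with P16 in Cd31+ cells, a log2 fold change of -0.39 (SE 0.14, edgeR adjusted p = 0.947). In Cd146+ cells it had 39.4, 56.7 and 36.3 CPM with empty vector and 11.8, 33.4 and 29.2 CPM with P16, a log2 fold change of -0.83 (SE 0.40, edgeR adjusted p = 0.986) that was -0.50 without the P16 library with number 1 and -0.39 (SE 0.33) with the block. The P16 libraries of Cd31+ cells lay close together, with an SD of 0.977 CPM for Ccnb1 and 0.826 CPM for Ccna2, the smallest of the 8 groups for both genes. Ccne2 differed by -0.37 (SE 0.21) and -0.79 (SE 0.41) and Cdk2 by -0.26 (SE 0.13) and -0.32 (SE 0.19), without a call. Ccne1, the other E-type cyclin, differed by 0.28 (SE 0.26) in Cd31+ and by -1.03 (SE 0.49) in Cd146+ cells, where the P16 libraries had 4.45, 7.35 and 16.2 CPM and the empty vector libraries 16.3, 23.5 and 17.9 CPM. Without single libraries this value ran from -1.72 to -0.70, and with the block it was -0.26 (SE 0.20), while Ccne2 in Cd146+ cells was at -0.38 (SE 0.21) with the block.

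The G1 members were not called either. Ccnd1 was at 0.44 (SE 0.22) in Cd31+ and 0.52 (SE 0.22) in Cd146+ cells, Ccnd2 at 0.18 (SE 0.22) and -0.28 (SE 0.25), and Ccnd3 at 0.40 (SE 0.17) and -0.39 (SE 0.29) on the log2 fold change scale, with overlapping groups except where stated. Cdk4 was at -0.07 in both populations (SE 0.17 and 0.19). Cdk6 was at -0.01 (SE 0.20) in Cd31+ cells, and in Cd146+ cells it had 68.0, 84.7 and 88.9 CPM with empty vector and 110.2, 136 and 97.6 CPM with P16, which did not overlap (0.51, SE 0.18, edgeR adjusted p = 0.986). With the block Ccnd1 was at 0.15 (SE 0.14) in Cd31+ and at 0.018 (SE 0.12) in Cd146+ cells, and Cdk6 in Cd146+ cells at 0.22 (SE 0.13), so these values shrank when libraries were set against those of their own number.

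**Figure D4:**
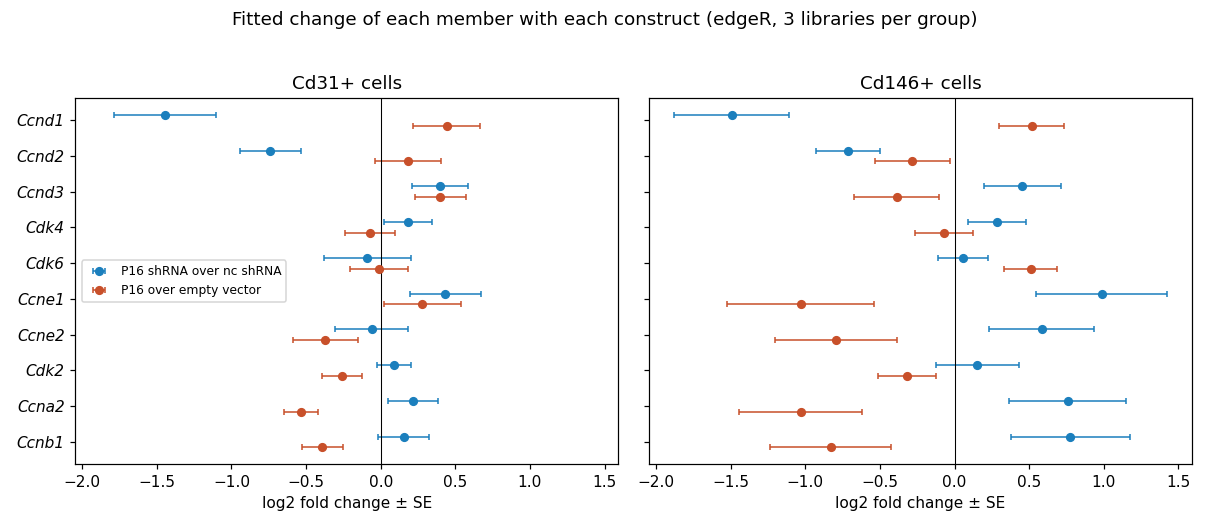
Fitted log2 fold change with its SE (bars) of each member, for P16 shRNA over nc shRNA and P16 over empty vector, in Cd31+ (left) and Cd146+ cells (right), 3 libraries per group. Ccnd1 has the largest value of both silencing comparisons (-1.45 and -1.49), and Ccna2 and Ccnb1 lie below 0 with P16 in both populations (-0.53 and -0.39, -1.03 and -0.83).

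No member was called for overexpression in Cd31+ cells, as were 0% of the 14565 genes by edgeR (544 genes, 3.73%, at an unadjusted p under 0.05, and 4 genes by DESeq2's Wald test). In Cd146+ cells 0% of 14860 genes were called (525 genes, 3.53%, unadjusted, and 1 gene by DESeq2). At the unadjusted level 2 of 10 members passed in Cd31+ cells, Ccna2 and Ccnb1, and 2 of 10 in Cd146+ cells, Cdk6 as higher and Ccna2 as lower. Groups were separate for 2 of 10 members in Cd31+ cells, where 10.8% of all genes were, and for 5 of 10 in Cd146+ cells (Cdk6, Ccne1, Ccne2, Ccna2 and Ccnb1), where 8.56% were. The 5 are not independent, since Ccne2, Ccna2 and Ccnb1 varied together (r of 0.87 to 0.96), and the Cd146+ groups share only number 5. Ccne1 was also separate between the controls of Cd146+ cells (4.47 to 13.8 CPM with nc shRNA, 16.3 to 23.5 CPM with empty vector). The count therefore cannot be read as an excess over the background. With the block 0 of 10 members were called in Cd31+ cells, beside 0.00648% of genes (1 gene). The median over the members was -0.040 in Cd31+ and -0.35 in Cd146+ cells, beside 0.013 and -0.0027 over all genes tested.

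Because P16 and empty vector share only number 5 in Cd146+ cells, the P16 libraries were also set beside nc shRNA libraries of their own number, a choice made after the data were seen and given without a test, since the vectors differ. Ccna2 was lower with P16 in 3 of 3 such pairs of Cd146+ cells (log2 ratios of -0.73, -0.43 and -0.63 for numbers 1, 3 and 5) and in 2 of 2 pairs of Cd31+ cells (-0.72 and -0.20). Ccnb1 was lower in the same 5 pairs (-0.84 to -0.094) and Ccne2 as well (-0.83 to -0.27). Cdk2 was lower in 4 of 5 (-0.34 to 0.047). Ccne1 was not uniform, with 3 of 5 higher (-0.24 to 0.64), and Ccnd1 stayed between -0.020 and 0.13. The low Ccna2 and Ccnb1 values of the P16 library with number 1 in Cd146+ cells (9.90 and 11.8 CPM) thus had a low partner (16.4 and 21.1 CPM with nc shRNA). Against empty vector, the shared numbers gave log2 ratios for Ccna2 of -0.70 and -0.48 in Cd31+ cells and -0.40 in Cd146+ cells.

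The control constructs gave the scale of differences between constructs not directed at P16. Cdkn2a itself differed between them by -0.0029 (SE 0.40) in Cd31+ and 0.58 (SE 0.31, edgeR adjusted p = 0.907) in Cd146+ cells. With the block over 12 libraries its difference was -0.15 (SE 0.42) in either population. In Cd31+ cells nc shRNA against empty vector called 0 of 10 members (0% of 14473 genes) and none passed the unadjusted level (3.16% of genes, and 18 genes adjusted by DESeq2's Wald test). In Cd146+ cells 0 of 10 were called (0% of 14976 genes, 5 by DESeq2), and 1 of 10, Ccne1, had an unadjusted p under 0.05 (3.99% of genes) with a log2 fold change of -1.10 (SE 0.43, edgeR adjusted p = 0.907). The difference of Ccne1 between the controls was thus as large as that between P16 and empty vector in these cells, and with the block it was -0.27 (SE 0.20). Ccnd1 differed by 0.28 (SE 0.26) and 0.47 (SE 0.22) between the controls. With the block on the 2 groups the value in Cd31+ cells was -0.051 (SE 0.14), and with the block over 12 libraries the values were 0.043 (SE 0.14) and -0.025 (SE 0.12).

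Between the populations, Cd146+ against Cd31+ over the 12 control libraries, 0 of 10 members were called by edgeR (0% of 15676 genes), and 3 of 10 passed the unadjusted level, where 17.5% of genes did (DESeq2's Wald test called 653 genes, no member among them). Ccnd3 was higher in Cd146+ cells by 0.44 (SE 0.19, edgeR adjusted p = 0.269), Cdk6 lower by -0.43 (SE 0.18, edgeR adjusted p = 0.260) and Ccna2 lower by -0.51 (SE 0.21, edgeR adjusted p = 0.253) in log2 fold change. Cd146+ controls had 32.0 ± 14.2 and 44.3 ± 9.15 CPM of Ccna2 with nc shRNA and empty vector, and Cd31+ controls 52.3 ± 9.09 and 55.2 ± 5.04 CPM. The 12 libraries overlapped, so these are differences of means with wide spread. The Ccnd3 difference was 0.28 (SE 0.18) with a term for the sex-linked transcripts and 0.20 (SE 0.15) with the number, taken as shared by the populations, as a block. Libraries with the same number in different populations deviated together only weakly (median r of 0.129 over 27 pairs), so this block is a weak pairing. Cdkn2a was higher in the Cd146+ controls by 0.995 (SE 0.28, edgeR adjusted p = 0.148). It was not called by edgeR but was by DESeq2's Wald test (adjusted p = 0.0198). Its part in the member differences was not tested.

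No difference of the silencing effect between the populations was detectable for any member with 3 libraries per group. Its difference, Cd146+ minus Cd31+, was -0.04 (SE 0.47) for Ccnd1 and 0.03 (SE 0.32) for Ccnd2 on the log2 scale, and at most 0.65 (SE 0.48), for Ccne2. 0 of 10 members were called (0% of 16524 genes) and none reached an unadjusted p under 0.05 (1.2% of genes, and no gene by DESeq2's Wald test). For overexpression 0 of 10 were called (0% of genes, 3 by DESeq2), and 2 of 10 passed unadjusted, beside 3.82% of genes, namely Ccne1 with a difference of -1.31 (SE 0.58, edgeR adjusted p = 0.989) and Ccnd3 with -0.79 (SE 0.34, edgeR adjusted p = 0.989). With the number within each population as a block they were -0.39 (SE 0.24) and -0.24 (SE 0.16).

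Over the 24 libraries Ccne2, Cdk2, Ccna2 and Ccnb1 varied together, while the r of the D-type cyclins with them lay between -0.48 and 0.023. Pearson's r of log2 CPM was 0.96 between Ccna2 and Ccnb1, 0.94 between Ccna2 and Ccne2, 0.86 between Ccnb1 and Cdk2 and 0.80 between Ccna2 and Cdk2. After subtraction of the group means, which removes the constructs, the same pairs had 0.91, 0.92, 0.81 and 0.67, and without the 2 libraries farthest from the median the first was 0.88. Ccne1 followed Ccne2 less closely (0.63 over all libraries, 0.69 within groups, and 0.20 without the 2 farthest libraries). Ccnd1 and Ccnd2 had r = 0.67, which went to 0.21 within groups, whereas Ccnd2 and Ccnd3 had -0.020 over all libraries and 0.66 within groups. Cdk4 was most like Cdk2 among the members (0.53), and the highest r of Cdk6 with any of them was 0.29, with Cdk2. All libraries share sequencing and scaling, 8 groups and a few replicate numbers, so these values are descriptions.

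With Cdkn2a, Ccna2 had r = -0.76, Ccnb1 -0.76, Ccne2 -0.69 and Cdk2 -0.63 over the 24 libraries. Within groups they were -0.73, -0.62, -0.78 and -0.53. Ccnd1 had 0.77 with Cdkn2a over all libraries and -0.15 within groups, so for Ccnd1 the relation lay between the constructs, and for the late members it was seen also among libraries of the same construct. In Cd146+ cells, for example, the P16 libraries with 832, 433 and 228 CPM of Cdkn2a (numbers 1, 3 and 5) had 9.90, 26.3 and 28.6 CPM of Ccna2, and the nc shRNA libraries with 194, 126 and 95.1 CPM had 16.4, 35.4 and 44.2 CPM. The replicate number ran along with both, and its part was not tested.

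**Figure D5:**
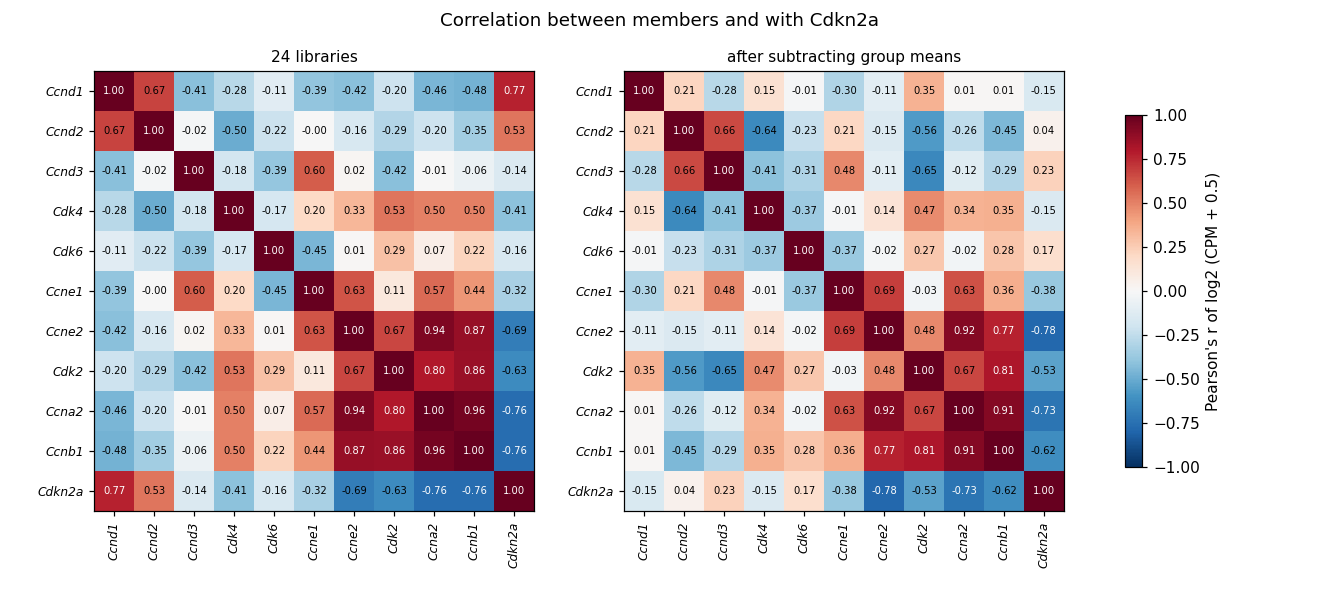
Pearson's r of log2 (CPM + 0.5) between the members and with Cdkn2a over the 24 libraries (left) and after subtracting the mean of each group (right). Ccne2, Cdk2, Ccna2 and Ccnb1 form a block of positive values in both panels, and the r of 0.77 between Ccnd1 and Cdkn2a is seen in the left panel only.

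Among 12164 protein-coding genes with a mean of at least 1 CPM, the 3 whose log2 CPM over the 24 libraries was most like that of Ccna2 were Spag5 (r = 0.98), Bub1 (0.97) and Ncapg (0.97), and those most like Ccnb1 were Racgap1, Kif4 and Hmmr (0.97, 0.96 and 0.96). Ccne2 was most like Prc1 (0.94), Bub1 (0.93) and Smc2 (0.93), and Cdk2 most like Srsf1 (0.94), Mcm7 (0.93) and Mre11a (0.93). Bub1, a spindle checkpoint kinase, Prc1 and Racgap1, which act in cytokinesis, and Mcm7, a subunit of the replicative helicase, are known cell cycle genes. Ccnd1 was most like Sulf2, Pacs2 and Flii (0.91, 0.91 and 0.91), Ccnd2 most like Ampd2, Tbx20 and Stxbp5 (0.91, 0.89 and 0.89) and Ccnd3 most like Peds1, Sytl4 and Slfn5 (0.86, 0.85 and 0.85). For Cdk4 they were Yeats4, Rnf126 and Hnrnpm (0.89, 0.88 and 0.87), for Cdk6 Resf1, Ap2a2 and Mob1b (0.83, 0.79 and 0.79), and for Ccne1 Mmp16, Inka1 and Snrpa1 (0.86, 0.86 and 0.85).

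Promoter sequences are shown for Ccnb1 and Cdk2, which varied together over the libraries, and for Ccnd3, which was called with the block. RefSeq windows (GRCm38.p6, 250 bases before to 50 after the start site, written 5′ to 3′ on the strand of the gene) were held for 6 of 10 members. Capitals mark matches on either strand to CCAAT, which is the core of a CCAAT box, to TTTGAA, as in a cell cycle homology element, to TTTNNCGC, as in an E2F-like site, and to GGGCGG, as in a GC box. The windows are Ccnb1 at chr13:100786437-100786736 (minus strand), Cdk2 at chr10:128705002-128705301 (minus strand) and Ccnd3 at chr17:47593217-47593516 (plus strand), which is 1 of its 2 windows.
Ccnb1: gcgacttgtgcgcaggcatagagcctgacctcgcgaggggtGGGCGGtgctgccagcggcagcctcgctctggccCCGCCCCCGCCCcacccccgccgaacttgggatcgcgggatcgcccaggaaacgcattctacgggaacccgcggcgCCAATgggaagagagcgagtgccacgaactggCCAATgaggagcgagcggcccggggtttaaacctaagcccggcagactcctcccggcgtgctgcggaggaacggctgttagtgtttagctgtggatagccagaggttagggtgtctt
Cdk2: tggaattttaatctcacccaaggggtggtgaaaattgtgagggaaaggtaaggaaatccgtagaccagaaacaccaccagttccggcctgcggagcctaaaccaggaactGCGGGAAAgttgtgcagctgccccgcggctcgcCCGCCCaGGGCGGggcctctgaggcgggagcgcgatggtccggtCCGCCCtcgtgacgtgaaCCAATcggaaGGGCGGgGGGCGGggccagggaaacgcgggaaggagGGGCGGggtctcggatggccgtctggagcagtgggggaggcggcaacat
Ccnd3: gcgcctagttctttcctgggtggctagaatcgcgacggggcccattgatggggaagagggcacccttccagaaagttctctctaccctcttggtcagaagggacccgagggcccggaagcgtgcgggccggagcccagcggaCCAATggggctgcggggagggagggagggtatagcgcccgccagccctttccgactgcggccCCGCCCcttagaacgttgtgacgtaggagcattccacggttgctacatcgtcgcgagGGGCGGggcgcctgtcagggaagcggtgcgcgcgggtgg

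The Ccnb1 window holds 2 CCAAT matches, at -99 to -95 and -67 to -63 from the start site, and 3 GGGCGG matches. The Cdk2 window holds 1 CCAAT match at -45 to -41, 1 TTTNNCGC match on the opposite strand at -140 to -133 and 6 GGGCGG matches. This Ccnd3 window lies within the printed span of the gene and holds 1 CCAAT and 2 GGGCGG matches. The other Ccnd3 window, at chr17:47504801-47505100, covers the printed start of the gene and holds 2 GGGCGG matches and no CCAAT. None of the 3 windows shown holds TTTGAA. Of all 32851 RefSeq promoter windows, CCAAT is held by 37.4%, while TTTGAA is held by 17.9%, TTTNNCGC by 5.17% and GGGCGG by 35.7%, so a match to CCAAT or GGGCGG is common, and such a match is no evidence of binding.

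The other cell cycle genes gave the setting of these values. Of 18 proliferation genes 0 were called in any of the 4 comparisons with edgeR, while 17 of 18 were above 0 with silencing in Cd31+ and 18 of 18 in Cd146+ cells, with median log2 fold changes of 0.33 and 0.70, and 18 of 18 were below 0 with overexpression in both, with medians of -0.28 and -0.76. Between the controls of Cd146+ cells, nc shRNA against empty vector, 17 of 18 were also below 0 with a median of -0.38, and in Cd31+ cells 10 of 18 with a median of -0.011. With the block the medians for overexpression were -0.29, with 17 of 18 below 0, and -0.47. Top2a, which untangles replicated DNA, and Mki67, a marker of cycling cells, are the most abundant of them. Mki67 had 142 ± 39.7 CPM with empty vector and 84.9 ± 4.12 CPM with P16 in Cd31+ cells (log2 fold change -0.74, SE 0.21), and 105 ± 15.3 and 43.7 ± 21.4 CPM in Cd146+ cells (-1.26, SE 0.40). With the block 5 of 18 were called as higher with silencing in Cd31+ cells, where 16.8% of all genes were called, and 0 of 18 in Cd146+ cells. The 5 were the helicase subunits Mcm2, Mcm3 and Mcm5, the nucleotide-making Rrm2 and the mitotic kinase Aurka, named after their values were seen. Of 20 further cell cycle cyclins, kinases and regulators, 18 were tested and 0 called in each comparison, with 16 of 18 above 0 in both silencing and 14 of 18 below 0 in both overexpression comparisons. With silencing, the block called 16.8% of all genes in Cd31+ and 8.33% in Cd146+ cells. Of this list it called Cdc25a and Mastl as higher (0.38 and 0.82) and Ccnh as lower (-0.56) in Cd31+ cells. In Cd146+ cells it called Cdc25a as higher (0.57). Cdc25a, Mastl and Ccnh were also named after their values were seen. Cdk1, the kinase of Ccnb1 and the most abundant of the 20, had 48.3 ± 16.7 CPM with nc shRNA and 88.2 ± 29.2 CPM with P16 shRNA in Cd146+ cells (0.88, SE 0.35). Fzr1, an activator of the ubiquitin ligase that removes mitotic cyclins, stayed within 0.25 on the log2 scale (SE 0.19) or less in the 4 comparisons.

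In the Rb and E2F list of 13 genes 1 was called, Rbl2, with silencing in Cd31+ cells, where 1.3% of all genes were called. Rbl2 encodes the Rb relative p130 and fell there from 38.1 ± 1.33 to 16.2 ± 0.418 CPM (log2 fold change -1.22, SE 0.10, edgeR adjusted p = 0.0115). In Cd146+ cells it was at 37.3 ± 4.84 and 10.8 ± 3.34 CPM (-1.79, SE 0.27, edgeR adjusted p = 0.308), and with the block this passed at -1.42 (SE 0.13, edgeR adjusted p = 0.00192). With P16 against empty vector Rbl2 was at 31.0 ± 6.16 and 33.8 ± 3.497 CPM in Cd31+ cells and at 32.8 ± 8.46 and 33.7 ± 2.42 CPM in Cd146+ cells, differences smaller than the spread. With the block Rb1 was also called as lower and E2f1 and E2f4 as higher in Cd31+ cells (-0.43, 0.38 and 0.38), where 16.8% of all genes were called. Rb1, E2f1 and E2f4 were named after their values were seen.

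Of the 7 CDK inhibitors, 6 were tested with silencing in Cd31+ cells and 1 called, where 1.3% of all genes were. It was the targeted gene Cdkn2a, at -3.08 (SE 0.35, edgeR adjusted p = 0.0218). In Cd146+ cells Cdkn2a was at -3.21 (SE 0.53, edgeR adjusted p = 0.361) and with the block at -3.39 (SE 0.37, edgeR adjusted p = 0.0105). Cdkn1a, the p21 inhibitor of Cdk2, was the most abundant, at 473 ± 53.0 CPM with nc shRNA and 372 ± 60.7 CPM with P16 shRNA in Cd31+ cells, and was called as lower only with the block (-0.35, SE 0.10, and -0.65, SE 0.10, in Cd146+ cells), and Cdkn2d as higher (0.46 and 0.59). With overexpression Cdkn2a was at 2.02 (SE 0.43) and 2.44 (SE 0.50), without a call by edgeR on 6 libraries and with one by DESeq2's Wald test. In Cd31+ cells the block on the 2 groups called it (1.77, SE 0.25, edgeR adjusted p = 1.15e-07). The block over 12 libraries did not (edgeR adjusted p = 0.267). Of 26 transcriptional and other cyclins and CDKs, 25 were tested and 0 called in each comparison. With silencing, the block called 16.8% of all genes in Cd31+ and 8.33% in Cd146+ cells. Of the 25 it called 4 as lower in Cd31+ cells (Ccnl1, Cdk16, Ccng1 and Ccni) and 2 in Cd146+ cells (Cdk16 and Ccng1). Ccng1, a p53 target and the most abundant of them, had 864 ± 207 and 619 ± 50.8 CPM with nc shRNA and P16 shRNA in Cd31+ cells and 908 ± 22.0 and 593 ± 116 CPM in Cd146+ cells, log2 fold changes of -0.47 (SE 0.19) and -0.61 (SE 0.19), and Ccni, the next most abundant, was at -0.38 (SE 0.17) and -0.34 (SE 0.23). Of the 25, 19 were below 0 with silencing in Cd31+ and 16 in Cd146+ cells.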

How the data were processed

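The authors deposited 1 table for the 24 libraries, with whole-number read counts and FPKM values per gene and a gene length. Per the labels, fastp was used and the build is mm9, whereas the positions in the table match GRCm38 for 1 of 10 members and the widths for 10 of 10, so positions are printed from the GENCODE annotation of GRCm38 by Ensembl identifier. The aligner and counter are not given in the sources used here. The FPKM values deposited by the authors equal counts per length and per scaled total (0.949 to 1.06 times the summed counts). The columns of the authors' own comparisons (group means, log2 fold changes, p-values and adjusted p-values) were not used.

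Groups came from the labels. Counts were fitted with edgeR 4.0.16 in R 4.3.3 (filterByExpr by group, TMM, robust quasi-likelihood fit, two-sided quasi-likelihood test), each construct against its own control over 6 libraries, the populations over the 12 control libraries, and the differences of effects over all 24. Alternatives were DESeq2 1.42.0 (size factors, and its Wald test on the same genes), no filter, 12 libraries in 1 fit, the replicate block and each library left out in turn. A sex-linked transcript term, the numbered pairs and the P16 pairs with nc shRNA were added after the data were seen. The fits without a block were run for some of the comparisons on simulated data with independent libraries. Those data held no effect of the replicate number, so they say nothing of the block fits.

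After removal of group means, the median r between libraries sharing a number was 0.626 in Cd31+ cells (13 pairs, lowest 0.391) and 0.739 in Cd146+ cells (10 pairs, lowest 0.353), and between libraries of different numbers it was -0.189 and -0.0889. The numbers come from the labels and were taken to pair the samples.

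The members and gene lists were chosen with earlier results of these data known. Named were all 10 members, Cdkn2a, from each list the called genes or else the 2 most abundant, and the 3 genes most like each member. Marker lists held 16 endothelial, 10 macrophage, 12 mesenchymal, 7 hepatocyte, 5 cholangiocyte and 6 lymphoid genes. The depth of 15409767 to 26470392 counted reads puts a floor of 3 counts at 0.113 to 0.195 CPM, for counting error only.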

Additional observations from a re-analysis of the deposited data

How the results depend on the processing

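Over 9 comparisons and their alternatives, the number of members called with an adjusted p under 0.05 was 0 throughout except with silencing. In Cd31+ cells it was 2 with all genes of at least 1 count, 2 by DESeq2's Wald test, 3 with the replicate block on the 2 groups or on 12 libraries, and 1 with 12 libraries in 1 fit. In Cd146+ cells it was 1 by DESeq2's Wald test and 3 with the block on 12 libraries, but 0 with the block on the 2 groups. The fit without the block, which called 0 members, also called 0 with any library left out, and the block fits were not run with libraries left out. The replicate block also turned small log2 fold changes with overexpression, in Cd31+ cells for Ccnd2 (-0.067 with 2 groups, -0.00032 with 12 libraries) and Cdk6 (0.010 and 0.12), and in Cd146+ cells for Ccnd3 (0.0080) and Cdk4 (0.03), and it changed no other call of a member. Over all genes, silencing in Cd31+ cells called 186 genes with edgeR, 1096 by DESeq2's Wald test and 2586 with the block over 12 libraries, and in Cd146+ cells 0, 333 and 1326. The share of all genes was not counted without the filter, with the block on the 2 groups or with 12 libraries in 1 fit. Member counts in those settings therefore have no background beside them. The Wald test called 4 and 1 genes for overexpression in Cd31+ and Cd146+ cells, 18 and 5 between the controls, 653 between the populations and 0 and 3 for the differences of effects, where edgeR called 0. With each library left out, values near 0 changed sign: with silencing in Cd31+ cells Cdk6 (-0.32 to 0.32), Ccne2 (-0.27 to 0.058) and Cdk2 (-0.0027 to 0.15), in Cd146+ cells Cdk2 (-0.16 to 0.28) and Cdk6 (-0.031 to 0.12), and with overexpression Cdk6 (-0.11 to 0.15) and Cdk4 (-0.23 to 0.033) in Cd31+ and Cdk4 (-0.24 to 0.028) in Cd146+ cells. The cause was not tested. The lowest member count was 63 reads, the effect of depth on the calls was not tested, and p-values assume that the replicates are independent.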

Other observations

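The share of Ccne1 in the summed FPKM of both E-type cyclins was 61.8 to 68.6% in the P16 libraries and 49.2 to 60.0% in the empty vector libraries of Cd31+ cells, without overlap. In Cd146+ cells it was 52.2 to 66.6% and 63.6 to 68.0%. The macrophage markers summed to 19.4 to 321 CPM and the cholangiocyte markers, mostly Spp1, to 38.0 to 979 CPM over the 24 libraries. The part of either in the cyclin values was not tested.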
